A study of Mus musculus with 46 samples.

Results

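The genes described here encode subunits of the mammalian SWI/SNF chromatin remodelling complexes, most of them found in some forms of the complex and not in others. They were the rows of 10 listed gene symbols, Pbrm1, Arid2, Brd7, Phf10, Brd9, Dpf2, Ss18l1, Bcl7a, Bcl7b and Bcl7c. All 10 were found among the 37108 genes of the gene table and, with transcripts summed by symbol, among the 35976 symbols of the transcript table. The rule itself uses no measured value.

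SWI/SNF complexes use the energy of ATP to slide or evict nucleosomes around the catalytic subunits BRG1 (gene Smarca4) and BRM (Smarca2). They exist in a canonical form (BAF), a polybromo form (PBAF) and a non-canonical form (ncBAF) that share a core and differ in a few subunits. PBRM1, ARID2, BRD7 and PHF10 are found in PBAF, BRD9 in ncBAF, and DPF2 in canonical BAF. SS18L1, the paralog of SS18, belongs to canonical BAF and ncBAF and is best known from neurons, and the BCL7 proteins occur in all forms. In embryonic stem cells a BAF assembly built around BRG1 is required for self-renewal.

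The study measured RNA by RNA-seq in mouse embryonic fibroblasts (MEF) that were reprogrammed towards induced pluripotent stem cells (iPSC). The fibroblasts were OG2 MEF, which carry a GFP reporter under Oct4 control, and every time-course group received retroviral Oct4 from a pMXs vector. Together with Oct4 they received either native Nanog (NanogWT, Nanog+Oct4 in the labels) or Nanog fused to a piece of SS18 that binds BRG1 (NanogBiD, NanogN70+Oct4 in the labels). Cells were taken on 8 days, from D0 (after infection) over D1, D3, D5 and D7 to D8, D10 and D12, and the medium was changed after D7. There were 15 NanogBiD and 16 NanogWT libraries, 2 per combination and day except for 1 NanogBiD library at D8. The 12 iPSC libraries comprised 6 per combination, labelled iPSC1 or iPSC2. These sets are called lines below, but the labels do not say that they name cell lines. Cells made with different factors share each label, so a line here is not 1 culture common to both combinations. The iPSC1 and iPSC2 sets also differed in passage, and the effect of passage cannot be separated from that of the label. Passage varied within NanogWT iPSC1 as well, and not within NanogBiD iPSC1. The 2 MEF libraries and 1 mES library (mouse embryonic stem cells, labelled OG2 and so with the same reporter) received no factors and served as references. The labels do not say whether replicates were separate infections, so p-values measure the spread between these libraries only. The vector transcripts are not parted from the endogenous ones, and part of the Ss18 signal with NanogBiD comes from the fusion.

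Values are FPKM, fragments scaled by gene length and library size, and differences are on the log2(FPKM + 1) scale. A gene was called at an adjusted p under 0.05 from limma. Whether the libraries of compared groups overlap is given as a description. With so few libraries per group they can lie apart by chance, and the share of all genes that did was not counted. The tables hold no read counts. Relative depth, read from the size of the smallest steps between values, was 0.813 to 1.10 in 25 time-course libraries and 1.86 to 3.19 in the 6 NanogWT libraries of D8 to D12, so depth and combination cannot be told apart from D8 on. Across genes, the correlation between replicates of a day was r = 0.961 to 0.990, lowest for NanogWT at D0. The summed level of 8 fibroblast markers was 5751 to 6683 FPKM in MEF and 8.24 in mES, and that of 8 pluripotency markers was 0.337 to 1.41 in MEF and 3563 in mES. The pluripotency sum rose to 1202 to 2171 FPKM with NanogBiD at D12 against 158 to 217 with NanogWT, while the fibroblast sum stood at 256 to 400 against 2497 to 2941. The combinations already lay apart from D3 to D7. The pluripotency sum was 6.36 to 106 FPKM with NanogBiD and 0.668 to 3.56 with NanogWT there, and the fibroblast sum 271 to 413 and 559 to 792. At D8 the fibroblast sum stood higher, at 712 FPKM with NanogBiD and 1671 to 1684 with NanogWT. In bulk RNA, fewer cells of a type and less RNA per cell cannot be told apart, and the part of cell mixture in the differences below was not tested.

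Promoter sequences are shown for the members whose RNA was higher with NanogBiD at D12 and that have an entry among the RefSeq promoters (GRCm38.p6), which held 8 of the 10 members. Each runs 5′ to 3′ on the gene's strand, from 250 bases before to 50 bases after the start, on chromosomes 19 (5912822 to 5913121, minus strand), 8 (88362123 to 88362422, minus), 7 (127708717 to 127709016, minus) and 2 (180042233 to 180042532, plus). Capitals mark matches, on either strand, of the NRF1 motif (GCGC, then any base, then TGCGC) and of the GC box GGGCGG.
Dpf2: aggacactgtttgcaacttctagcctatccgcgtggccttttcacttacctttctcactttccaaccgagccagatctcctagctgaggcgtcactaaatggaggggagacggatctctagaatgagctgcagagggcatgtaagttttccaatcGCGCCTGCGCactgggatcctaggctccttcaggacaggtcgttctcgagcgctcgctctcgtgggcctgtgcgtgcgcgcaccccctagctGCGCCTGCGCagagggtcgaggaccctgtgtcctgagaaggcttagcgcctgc
Brd7: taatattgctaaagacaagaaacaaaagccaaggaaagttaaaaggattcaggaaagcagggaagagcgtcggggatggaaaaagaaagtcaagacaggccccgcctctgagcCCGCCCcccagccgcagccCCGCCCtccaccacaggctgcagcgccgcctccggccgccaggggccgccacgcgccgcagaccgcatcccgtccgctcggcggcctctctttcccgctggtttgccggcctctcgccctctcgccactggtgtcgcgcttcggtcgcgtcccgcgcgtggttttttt
Bcl7c: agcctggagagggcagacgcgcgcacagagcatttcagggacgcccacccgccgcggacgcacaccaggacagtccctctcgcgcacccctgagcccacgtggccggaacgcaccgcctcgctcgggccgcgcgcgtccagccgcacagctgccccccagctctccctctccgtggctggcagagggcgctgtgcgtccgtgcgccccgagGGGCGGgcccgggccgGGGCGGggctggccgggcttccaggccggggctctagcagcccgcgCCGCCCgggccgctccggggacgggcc
Ss18l1: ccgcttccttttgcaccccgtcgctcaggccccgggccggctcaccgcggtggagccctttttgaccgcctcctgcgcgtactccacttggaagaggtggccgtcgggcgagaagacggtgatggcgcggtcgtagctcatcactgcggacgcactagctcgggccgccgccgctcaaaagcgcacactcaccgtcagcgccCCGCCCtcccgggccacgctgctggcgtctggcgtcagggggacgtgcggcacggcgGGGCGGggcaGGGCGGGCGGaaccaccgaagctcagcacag
The promoters differed in these letters. Dpf2 held the NRF1 motif at 2 places, at -95 to -86 and -3 to 6 from the start base counted as 0, and no GC box. Brd7 held 2 GC boxes, Bcl7c 3 and Ss18l1 4, of which the last 2 overlap, and none of the 3 held the NRF1 motif. Among 27025 RefSeq promoters of the same length, 4.78% held the NRF1 motif, 1.47% held it at least at 2 places, and 35.9% held a GC box. The E-box CACGTG, present in 7.24% of all promoters, was found once each in Pbrm1, Bcl7b and Bcl7c, and the octamer ATGCAAAT, present in 1.75%, in none of the 8. Bcl7b, whose RNA was called in no comparison in the fit of all groups, also held the NRF1 motif at 2 places. The motifs were picked after the sequences were seen, and matches of letters are not shown to be bound.

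FPKM is per length, so levels are set side by side here, as the gene table gives them. In MEF the order was Phf10 (23.3 ± 6.2 FPKM, SD, n = 2), Dpf2 (21.0 ± 4.9), Pbrm1 (18.2 ± 1.4), Bcl7b (14.0 ± 1.1), Arid2 (8.37 ± 0.74), Brd7 (8.28 ± 1.48), Bcl7a (7.65 ± 2.29), Bcl7c (6.89 ± 1.23), Brd9 (5.39 ± 0.87) and Ss18l1 (1.75 ± 0.62). The ranges of neighbours overlapped among the first 3 and from Arid2 to Bcl7c and were apart elsewhere. In NanogBiD at D12 the order was Dpf2 (39.96 ± 1.93 FPKM), Bcl7a (22.1 ± 4.3), Pbrm1 (19.2 ± 2.0), Arid2 (18.8 ± 1.0), Phf10 (17.6 ± 0.4), Brd7 (14.2 ± 1.3), Bcl7b (12.4 ± 3.7), Bcl7c (10.6 ± 0.7), Ss18l1 (8.07 ± 1.12) and Brd9 (6.13 ± 1.03). Dpf2 stood apart from all others there, and Bcl7a, seventh in MEF, stood beside Pbrm1, with overlapping ranges. Arid2 overlapped with Pbrm1, and Bcl7b with Brd7 and Bcl7c. In mES, with 1 library, Dpf2 (32.8 FPKM) and Brd7 (17.8 FPKM) led and Brd9 (3.71 FPKM) and Ss18l1 (2.53 FPKM) were lowest. These orders depend on the table. In the transcript table, described with the iPSC below, the same MEF libraries put Bcl7c second (24.6 FPKM), Brd7 beside Pbrm1 (19.1 FPKM each) and Brd9 above Arid2 and Bcl7a (12.1 FPKM against 7.33 and 6.23), and the mES library put Brd7 (38.8 FPKM) above Dpf2 (33.4 FPKM) and Brd9 (8.72 FPKM) above Arid2 (6.83 FPKM) and Bcl7a (3.42 FPKM).

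**Figure D1:**
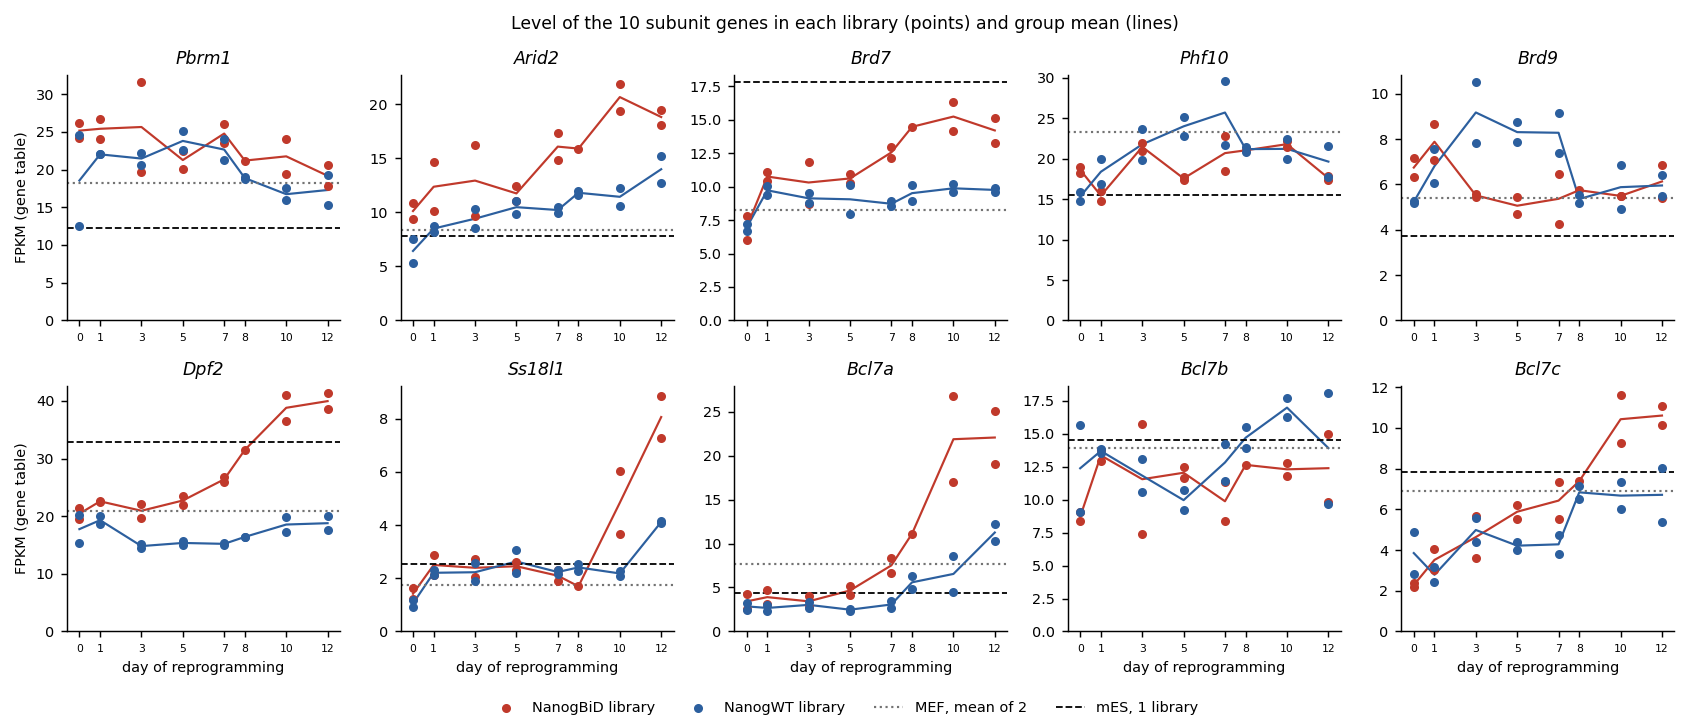
FPKM of each of the 10 genes (vertical axis) by day of reprogramming (horizontal axis) in the gene table, with 1 point per library, lines through the group means, a dotted line at the mean of 2 MEF libraries and a dashed line at the mES library. The NanogBiD libraries lie above those of NanogWT from D1 on for Dpf2 and from D5 on for Bcl7a, and Brd9 lies higher with NanogWT from D3 to D7.

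When the RNA of these subunits differed with the fusion was examined by comparing NanogBiD with NanogWT at each day. No member was called at D0 or D1, where 1.91% and 3.27% of the 16842 genes tested were called. At D3 Dpf2 was higher and Brd9 lower with NanogBiD (2 of 10 members, against 10.1% of all genes), and at D5 Phf10 was lower as well (3 of 10, against 16.4%). At D7 Dpf2, Bcl7a, Arid2 and Brd7 were higher and Brd9 was lower (5 of 10, against 28.4%). At D10 Dpf2, Bcl7a, Ss18l1, Arid2, Brd7 and Bcl7c were higher (6 of 10, where 32.4% of all genes were higher), and at D12 the same genes without Arid2 (5 of 10, where 31.6% were higher). No member was called lower at D10 or D12, where 23.1% and 19.1% of all genes were. Counted in either direction, 55.6% and 50.7% of all genes were called at these days, so that the share of members called was close to the background. The median log2 difference of the 10 members was 0.22, 0.19, 0.10, 0.18, 0.30, 0.57 and 0.45 in the order of days, beside 0.01, 0.02, 0.04, 0.08, 0.08, 0.10 and 0.17 over all genes tested. These sets were not matched for level. The filter lets in genes under 1 FPKM in most libraries, and log2(FPKM + 1) shrinks differences at such levels.

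Averaged over D0 to D7, where all libraries had like depth, Dpf2 (log2 difference 0.44, SE 0.05, adjusted p = 4.03e-06), Arid2 (0.44, SE 0.09, adjusted p = 0.000707), Bcl7a (0.49, SE 0.12, adjusted p = 0.00371) and Brd7 (0.19, SE 0.07, adjusted p = 0.0260) were higher with NanogBiD and Brd9 (-0.26, SE 0.08, adjusted p = 0.0188) was lower. These 5 of 10 calls stood beside 36.0% of all genes. The Dpf2, Arid2 and Bcl7a calls held with any 1 of the 20 libraries left out. Brd9 was no longer called without NanogWT D3 replicate 1 (adjusted p = 0.0510). Brd7 was lost without any 1 of 7 libraries (NanogBiD D0, D1 and D3 replicate 1 and D5 replicate 2, and NanogWT D1 and D3 replicate 2 and D5 replicate 1, adjusted p up to 0.0694) and after quantile normalization (adjusted p = 0.108). The average shares its libraries with the comparisons at single days.

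**Figure D2:**
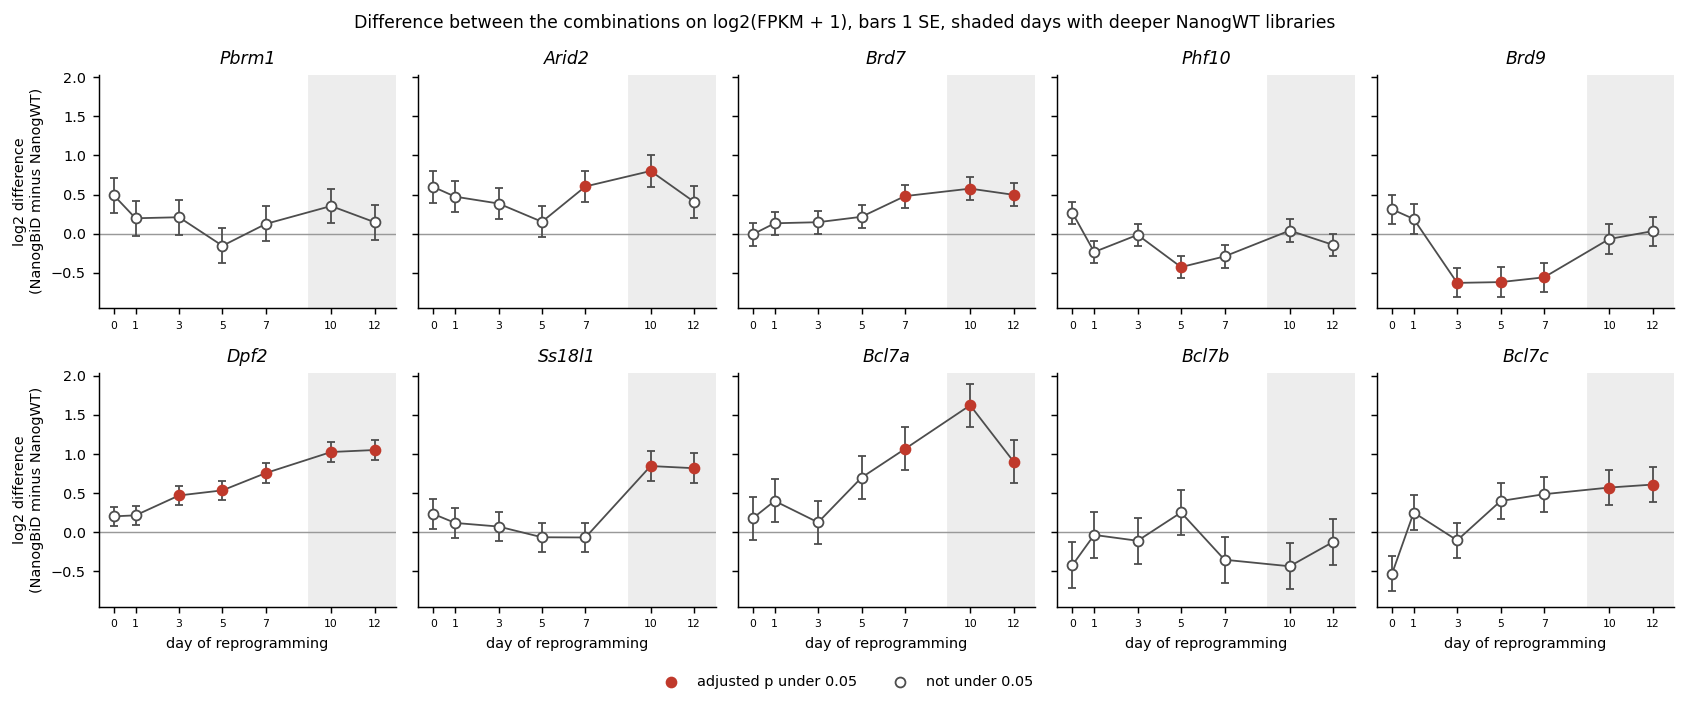
Log2 difference of NanogBiD minus NanogWT (vertical axis, log2(FPKM + 1)) by day (horizontal axis) for the 10 genes, with bars of 1 SE, filled points at an adjusted p under 0.05 and shading over D10 and D12, where the NanogWT libraries were deeper. Dpf2 climbs from 0.20 at D0 to 1.05 at D12, and Brd9 lies near -0.6 from D3 to D7 and near 0 at D10 and D12.

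Dpf2, whose paired PHD fingers bind acetylated histone H3 and which belongs to the canonical form, gave the steadiest difference. With NanogBiD its libraries (replicates 1 and 2, in that order here and below) stood at 19.5 and 21.3 FPKM at D0, 22.1 and 19.8 at D3, 23.4 and 22.01 at D5, 25.9 and 26.9 at D7, 41.0 and 36.6 at D10, then 41.3 and 38.6 at D12. With NanogWT they stood at 20.2 and 15.3 FPKM at D0, 15.1 and 14.5 at D3, 14.96 and 15.7 at D5, 15.01 and 15.4 at D7, 17.3 and 19.8 at D10, then 17.5 and 20.03 at D12. From D1 on, every NanogBiD library lay above every NanogWT library of its day. The log2 difference was 0.47 at D3 (SE 0.12, adjusted p = 0.0170), 0.54 at D5 (adjusted p = 0.00443), 0.76 at D7 (adjusted p = 0.000104), 1.03 at D10 (adjusted p = 8.32e-07) and 1.05 at D12 (adjusted p = 7.52e-07). The calls at D7, D10 and D12 held with any library left out. The D3 call was lost without NanogWT replicate 1 (adjusted p = 0.0696), NanogWT replicate 2 (0.123) or NanogBiD replicate 1 (0.136) and in a fit to the compared groups alone (0.306), and the D5 call without replicate 1 of either combination (0.0509 and 0.0545). Its level with NanogBiD at D12 was 1.22 times that of the mES library.

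From D0 to D12, Dpf2 rose with NanogBiD (log2 difference 0.94, SE 0.12, adjusted p = 1.90e-06). With NanogWT the difference was 0.09 (SE 0.12, adjusted p = 0.620). The change differed between the combinations (interaction 0.85, SE 0.17, adjusted p = 0.000767), also with any library left out. A gene annotated as antisense overlaps Dpf2 (chromosome 19, 5896516 to 5913010, mm10, minus strand), and whether strand was used in counting is not stated.

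Brd9, the bromodomain subunit that defines ncBAF, went the other way for a time. At D0 NanogBiD stood at 6.33 and 7.16 FPKM and NanogWT at 5.17 and 5.29. At D3 NanogBiD stood at 5.44 and 5.598 and NanogWT at 10.5 and 7.84, at D5 at 5.43 and 4.69 against 8.74 and 7.87, and at D7 at 4.26 and 6.47 against 7.40 and 9.15. The groups did not overlap at these days, with NanogBiD above NanogWT at D0, where Brd9 was not called, and below it from D3 to D7. The log2 difference was -0.63 at D3 (SE 0.19, adjusted p = 0.0362), -0.62 at D5 (adjusted p = 0.0272) and -0.56 at D7 (adjusted p = 0.0302), and -0.07 and 0.03 at D10 and D12. These calls were thin. With 1 library left out, the D3 call was lost without NanogBiD replicate 1 (adjusted p = 0.139), NanogBiD replicate 2 (0.0870) or NanogWT replicate 1 (0.303), the D5 call without any of its 4 libraries (0.0616 to 0.184), and the D7 call without NanogBiD replicate 1 (0.324) or NanogWT replicate 2 (0.214). In a fit to the compared groups alone, the adjusted p was 0.244 at D3, 0.136 at D7 and 0.150 for the difference in change below. The change from D0 to D7 differed between the combinations (interaction -0.87, SE 0.26, adjusted p = 0.0295), with a rise of 0.57 with NanogWT (adjusted p = 0.0208) and a change of -0.30 with NanogBiD (adjusted p = 0.203), which was -0.55 and called without NanogBiD D7 replicate 2 (adjusted p = 0.0448) and -0.05 without NanogBiD D7 replicate 1. That interaction was lost without NanogWT D0 replicate 1 (adjusted p = 0.0662), NanogBiD D0 replicate 2 (0.104), NanogBiD D7 replicate 1 (0.160) or NanogWT D7 replicate 2 (0.124). The rise with NanogWT was lost without NanogWT D0 replicate 1 (0.0779), D0 replicate 2 (0.0520) or D7 replicate 2 (0.173) and after quantile normalization (0.235). An antisense gene overlaps Brd9 as well (chromosome 13, 73937811 to 73960895, plus strand).

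Brd7, the paralog of Brd9 found in PBAF, was higher with NanogBiD from D7 on. With NanogBiD its libraries stood at 7.83 and 6.04 FPKM at D0, 12.95 and 12.2 at D7, 14.2 and 16.3 at D10, then 13.3 and 15.1 at D12. With NanogWT they stood at 7.21 and 6.65 at D0, 8.52 and 8.91 at D7, 9.56 and 10.2 at D10, then 9.62 and 9.88 at D12. The groups overlapped at D0 and did not at D7, D10 or D12. The log2 difference was 0.48 at D7 (SE 0.15, adjusted p = 0.0179), 0.58 at D10 (adjusted p = 0.00237) and 0.50 at D12 (adjusted p = 0.00795). The D7 call was lost without any of its 4 libraries (adjusted p = 0.0507 to 0.0994) and the D12 call without NanogBiD replicate 2 (0.0762), while the D10 call held.

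Ratios within a library do not depend on its scaling but do depend on the table, and are given as a description. The Brd9 to Brd7 ratio was 0.779 to 1.11 in the 6 NanogWT libraries of D3 to D7 and 0.329 to 0.641 in the 6 NanogBiD libraries, so the sets did not overlap. In the 4 libraries of D0 and D1 the ranges were 0.644 to 0.795 (NanogWT) and 0.680 to 1.18 (NanogBiD), which overlap, and at D10 and D12 they were 0.482 to 0.716 and 0.337 to 0.453, apart again. MEF stood at 0.644 and 0.661, and mES at 0.209. The Dpf2 to Brd9 ratio was 1.44 to 2.03 with NanogWT and 3.53 to 6.08 with NanogBiD from D3 to D7, against 8.84 in mES. In the transcript table the same mES library gave 3.83 for Dpf2 to Brd9 and 0.225 for Brd9 to Brd7.

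**Figure D3:**
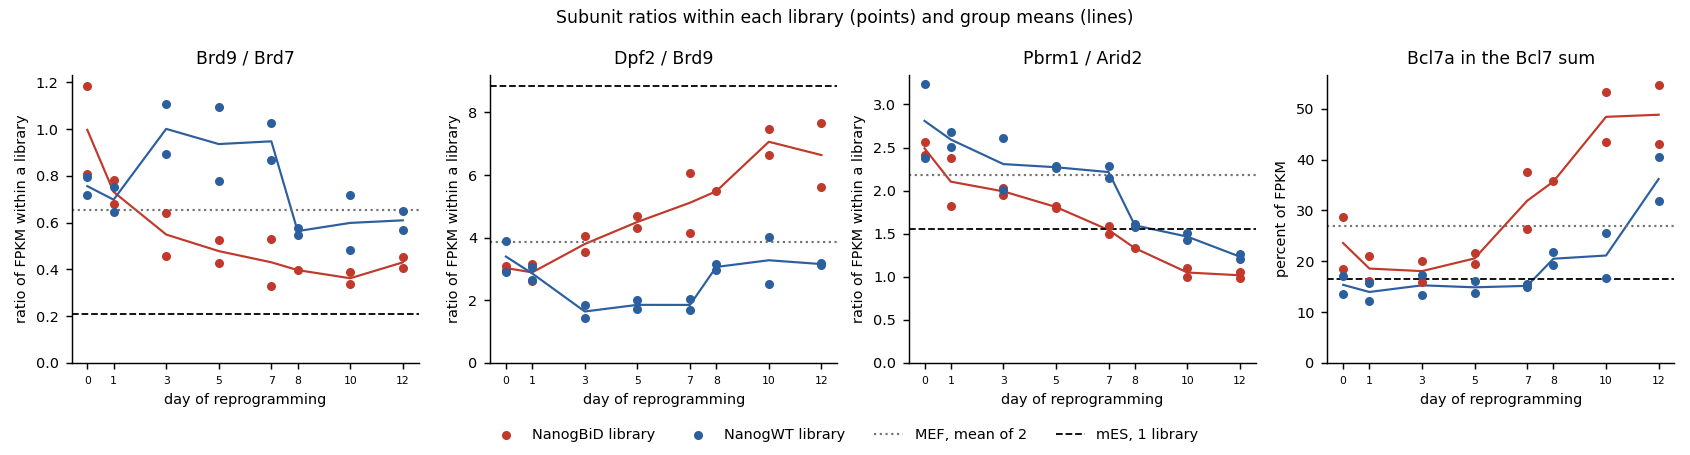
Ratios of FPKM within each library by day, for Brd9 to Brd7, Dpf2 to Brd9 and Pbrm1 to Arid2, and Bcl7a as a percent of the Bcl7a, Bcl7b and Bcl7c sum, with points for libraries, lines through group means, a dotted line for MEF and a dashed line for mES. From D3 to D7 the Brd9 to Brd7 ratio lies at 0.329 to 0.641 with NanogBiD and at 0.779 to 1.11 with NanogWT.

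The other PBAF genes did not move as a group. Arid2, the AT-rich interaction subunit that takes the place ARID1A or ARID1B hold in BAF, stood at 14.8 and 17.4 FPKM with NanogBiD at D7 against 9.91 and 10.5 with NanogWT, and at 19.4 and 21.9 against 10.6 and 12.3 at D10. The combinations did not overlap at either day. The log2 difference was 0.60 at D7 (SE 0.20, adjusted p = 0.0296) and 0.80 at D10 (adjusted p = 0.00217), and 0.41 at D12, which did not pass (adjusted p = 0.0996). At D7 it was lost without NanogBiD replicate 2 (adjusted p = 0.185), NanogWT replicate 1 (0.137) or NanogWT replicate 2 (0.0785), and when rescaled to a common total (0.0838) or quantile normalized (0.0596). At D3, where it did not pass (0.39, adjusted p = 0.269), it was called without NanogBiD replicate 1 (0.73, adjusted p = 0.0440). The D10 call held with any library left out. Arid2 rose from D0 to D12 in both combinations, by 1.03 with NanogWT (SE 0.20, adjusted p = 0.000419) and 0.84 with NanogBiD (adjusted p = 0.00130), with no difference between them past the threshold (interaction -0.19, SE 0.28, adjusted p = 0.642). With NanogBiD at D12 it stood at 2.40 times the mES library.

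Pbrm1, the polybromo subunit that gives PBAF its name, was called in none of the time-course comparisons. Its levels ran from 15.3 to 26.7 FPKM in all but 2 of the 31 libraries, NanogWT D0 replicate 1 (12.6 FPKM) and NanogBiD D3 replicate 2 (31.6 FPKM). NanogWT D0 replicate 2 stood at 24.5 FPKM, so the NanogWT D0 libraries differed widely. Without replicate 2, the D0 log2 difference of Pbrm1 was 0.94 (adjusted p = 0.0142), and without replicate 1 it was 0.03. Likewise, the rise from D0 to D7 with NanogWT was 0.80 (adjusted p = 0.00466) and the average difference over D0 to D7 was 0.26 (adjusted p = 0.0137) without replicate 2, against 0.34 and 0.17 with it, neither called. Arid2 (log2 difference 0.82, adjusted p = 0.0357) and Bcl7c (-0.84, adjusted p = 0.0440) were likewise called at D0 only without NanogWT D0 replicate 2, against 0.60 and -0.53 with all 4 libraries. The Pbrm1 to Arid2 ratio, given as a description, went from 2.38 to 3.23 in the NanogWT and 1.83 to 2.57 in the NanogBiD libraries of D0 and D1 to 1.203 to 1.503 and 0.981 to 1.10 at D10 and D12. Pbrm1 (chromosome 14, 31019138 to 31121592, plus strand) is overlapped on the other strand by the coding genes Gnl3 and Smim4. At D12 Gnl3 stood at 46.0 to 58.5 FPKM with NanogBiD and 17.4 to 22.1 with NanogWT. Smim4 stood at 2.48 to 3.14 and 4.13 to 5.36. Without strand information the reads of overlapping genes cannot be told apart.

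Phf10, the PHD finger subunit of PBAF and a relative of Dpf2, rose from D0 to D7 with NanogWT, from 14.8 and 15.9 to 21.8 and 29.7 FPKM (log2 difference 0.70, SE 0.14, adjusted p = 0.000646). With NanogBiD it went from 18.2 and 19.0 to 18.5 and 22.9 FPKM (0.14, SE 0.14, adjusted p = 0.468), and the difference between these changes did not pass (interaction -0.56, SE 0.20, adjusted p = 0.0712). It did pass without NanogWT D7 replicate 1 (adjusted p = 0.0184) or NanogBiD D7 replicate 2 (0.0392), or when rescaled to a common total (0.0447). The NanogWT rise held with any library left out but not in a fit to the compared groups alone (adjusted p = 0.109). At D5 it was lower with NanogBiD, at 17.8 and 17.4 against 25.2 and 22.9 FPKM (log2 difference -0.43, SE 0.14, adjusted p = 0.0480), a call that was lost without any of the 4 libraries (adjusted p = 0.0795 to 0.282) and in the fit of D0 to D7 alone (0.0865). Without NanogWT D7 replicate 1, Phf10 was also called lower with NanogBiD at D7 (log2 difference -0.51, adjusted p = 0.0319) and over the mean of D0 to D7 (-0.18, adjusted p = 0.0258), against -0.29 and -0.14 with all libraries. Phf10 (chromosome 17, 14945009 to 14961273, minus strand) is overlapped on the opposite strand by 1600012H06Rik, which stood at 20.3 to 20.4 FPKM with NanogBiD and 25.6 to 26.8 with NanogWT at D5. Without strand information their reads cannot be told apart.

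The BCL7 proteins are small subunits of every form of the complex. Bcl7a changed most of all 10 members, with a range of 2.72 on the log2 scale between its highest and lowest time-course group means. With NanogBiD its libraries stood at 2.60 and 4.23 FPKM at D0, 4.16 and 5.16 at D5, 6.67 and 8.36 at D7, 17.0 and 26.8 at D10, then 19.0 and 25.1 at D12. With NanogWT they stood at 3.24 and 2.46 at D0, 2.61 and 2.34 at D5, 3.46 and 2.67 at D7, 4.45 and 8.64 at D10, then 12.2 and 10.3 at D12. The combinations overlapped at D0 and not from D5 on. The log2 difference was 0.70 at D5, which did not pass (SE 0.27, adjusted p = 0.0918, but 0.0278 in a fit to the compared groups alone), 1.07 at D7 (adjusted p = 0.00625), 1.62 at D10 (adjusted p = 5.07e-05) and 0.90 at D12 (adjusted p = 0.00995). The D10 call held with any library left out, while the D7 call was lost without NanogBiD replicate 2 (adjusted p = 0.0658) or NanogWT replicate 2 (0.0615) and the D12 call without NanogBiD replicate 2 (0.0982) or NanogWT replicate 2 (0.0715).

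Bcl7a rose from D0 to D12 in both combinations, by 2.40 with NanogBiD (SE 0.27, adjusted p = 3.38e-07) and 1.67 with NanogWT (adjusted p = 6.96e-05). The difference between these changes did not pass (interaction 0.72, SE 0.39, adjusted p = 0.156). The NanogBiD mean at D12 was 5.02 times the mES level of 4.39 FPKM, and both MEF libraries (6.03 and 9.27 FPKM) lay above mES as well. An antisense gene and a further pair of genes on its own strand overlap Bcl7a (chromosome 5, 123343834 to 123374992, plus strand).

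Bcl7c went from 2.37 and 2.19 FPKM at D0 to 10.1 and 11.1 at D12 with NanogBiD and from 4.87 and 2.83 to 8.03 and 5.39 with NanogWT. The rise was 1.82 (SE 0.23, adjusted p = 9.25e-07) and 0.68 (adjusted p = 0.0224). It differed between the combinations (interaction 1.14, SE 0.32, adjusted p = 0.00843), but not without NanogWT D0 replicate 1 (adjusted p = 0.0555) or NanogWT D12 replicate 2 (0.0562). The NanogWT rise was lost without NanogWT D0 replicate 2 (0.263) or D12 replicate 1 (0.246). At D10 and D12 Bcl7c was higher with NanogBiD by 0.57 (SE 0.23, adjusted p = 0.0377) and 0.61 (adjusted p = 0.0301). At D10 the call was lost without NanogBiD replicate 2 (0.226) or NanogWT replicate 1 (0.212) and with a pseudocount of 0.1, no filter or either other scaling (0.0525 to 0.0730), and at D12 without NanogBiD replicate 1 (0.0683), NanogBiD replicate 2 (0.127) or NanogWT replicate 2 (0.294). Bcl7c (chromosome 7, 127661456 to 127708933, minus strand) is overlapped by a non-coding gene and a microRNA gene on the other strand.

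Bcl7b was called in no comparison in the fit of all groups, with log2 differences of -0.43 to 0.25 between the combinations over the 7 days and SE 0.29. In a fit to the compared groups alone it was called lower with NanogBiD at D10 (log2 difference -0.43, adjusted p = 0.0292, against 0.219 in the fit of all groups). Its replicates spread widely, at 15.7 and 7.38 FPKM with NanogBiD at D3 and 18.1 and 9.70 with NanogWT at D12. Bcl7a made up 16.2% to 28.6% of the Bcl7a, Bcl7b and Bcl7c sum in the NanogBiD libraries of D0 and D1 and 43.1% to 54.6% at D10 and D12. With NanogWT the share was 12.2% to 17.1% and then 16.6% to 40.6%. In mES it was 16.4%, and in MEF 21.1% and 32.6%. The transcript table, in which Bcl7c is higher, gave 8.68% for the same mES library and 9.81% and 19.8% for MEF, so the size of the share depends on the table.

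Ss18l1, also known as CREST, is the paralog of the gene whose N-terminal part is in the fusion. It stood at 1.21 and 1.62 FPKM with NanogBiD and 0.920 and 1.18 with NanogWT at D0, and the log2 difference did not pass (0.23, SE 0.19, adjusted p = 0.602), while Ss18 itself was higher by 1.10 (SE 0.17, adjusted p = 0.00103). It rose late. With NanogBiD it stood at 1.70 FPKM in the D8 library, 3.66 and 6.03 at D10, then 7.28 and 8.86 at D12, and with NanogWT at 2.54 and 2.28, 2.26 and 2.10, and 4.16 and 4.08. All NanogBiD libraries lay above those of NanogWT at D0, D10 and D12 and not on the days between. The log2 difference was 0.85 at D10 (SE 0.19, adjusted p = 0.000787) and 0.82 at D12 (adjusted p = 0.00123), and both calls held with any library left out. From D0 to D12 it rose by 1.91 with NanogBiD (SE 0.19, adjusted p = 4.40e-08) and 1.32 with NanogWT (adjusted p = 1.41e-05). The NanogBiD mean at D12 was 3.18 times the mES level of 2.53 FPKM.

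A neuronal marker was also high in these libraries. Tubb3, a neuronal tubulin and 1 of the 9 listed markers of other cell types, stood at 322 to 448 FPKM with NanogBiD and 223 to 258 with NanogWT at D12, against 18.2 in mES and 28.2 to 41.6 in MEF. With NanogBiD it stood at 4.38 to 5.36 FPKM at D0, 9.45 to 19.5 at D1 and 167 to 296 at D3. It then stood at 252 in both libraries at D5, 103 to 131 at D7 and 191 to 308 at D10. With NanogWT it stood at 17.4 to 30.7 FPKM from D3 to D7. Ss18l1 with NanogBiD stood at 2.05 and 2.74 FPKM at D3 and 2.30 and 2.60 at D5, before its late rise. The summed list ran from 332 to 455 FPKM with NanogBiD and 227 to 264 with NanogWT at D12, with 3 of 9 at 1 FPKM or more in each combination. The blood marker Ptprc and the epithelial marker Krt5 were listed at 0 in both NanogBiD libraries of that day. At D12, 15 of the other 18 subunits were called higher than at D0 with NanogBiD and 12 with NanogWT. Of all genes, 42.8% and 27.4% were. Called lower were 1 and 0 of the 18, against 18.9% and 10.7%. Those higher in both combinations were Actl6a, Arid1a, Bicra, Bicral, Smarcc1, Smarcc2, Smarcd1, Smarce1, Actl6b, Dpf1 and Dpf3. Ss18 and Smarcd3 were called in neither combination. Actl6b, Dpf1 and Dpf3 are known from the neuronal form of BAF and are given here with NanogBiD first, and Actl6a rose beside Actl6b. Actl6b rose by 2.25 (adjusted p = 3.13e-09) and 1.76 (adjusted p = 2.50e-07), Dpf1 by 1.65 and 0.88, and Dpf3 by 1.47 and 0.96. The part of neuron-like cells in the Ss18l1 and Bcl7a levels was not tested.

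Within each combination, 6 of 10 members rose from D0 to D12 with NanogBiD (Arid2, Brd7, Dpf2, Ss18l1, Bcl7a and Bcl7c), where 42.8% of all genes rose (61.7% called in either direction), and 5 with NanogWT (the same without Dpf2), where 27.4% rose (38.1% in either direction). None fell, against 18.9% and 10.7% of all genes. The NanogWT D12 libraries were deeper than those of D0, and depth and day cannot be told apart there. All genes tested had a median difference of 0.34 with NanogBiD and 0.19 with NanogWT, which quantile normalization took to -0.01 and -0.05. The 6 NanogBiD calls held under it, while only Arid2, Bcl7a and Ss18l1 kept the NanogWT call, with Brd7 at an adjusted p of 0.318 and Bcl7c at 0.253. Brd7 rose by 0.94 with NanogBiD (SE 0.15, adjusted p = 1.43e-05) and 0.44 with NanogWT (adjusted p = 0.0226), and the latter was lost without NanogWT D0 replicate 2 (0.0950), D12 replicate 1 (0.0697) or D12 replicate 2 (0.0954).

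From D0 to D7, which shares the D0 libraries with the comparison above, 5 of 10 members rose with NanogBiD (Arid2, Brd7, Dpf2, Bcl7a and Bcl7c, against 31.2% of all genes, 43.8% in either direction) and 4 with NanogWT (Arid2, Phf10, Brd9 and Ss18l1, against 25.5%, 38.7% in either direction). None fell, against 12.6% and 13.2% of all genes. Bcl7c rose by 1.17 (SE 0.23, adjusted p = 0.000307) and Brd7 by 0.78 (adjusted p = 0.000221) with NanogBiD, and both held with any library left out. With NanogBiD, Dpf2 rose by 0.36 (adjusted p = 0.0239, lost without D0 replicate 1 at 0.149, D7 replicate 1 at 0.0606 or D7 replicate 2 at 0.0954), Arid2 by 0.62 (adjusted p = 0.0174, lost without replicate 2 of D0 or D7, at 0.115 each) and Bcl7a by 0.96 (adjusted p = 0.00757, lost without D0 replicate 1 at 0.111 or D7 replicate 2 at 0.0655). With NanogWT, Arid2 rose by 0.61 (adjusted p = 0.0207, lost without D0 replicate 1 at 0.227, D7 replicate 1 at 0.0596 or D7 replicate 2 at 0.0978) and Ss18l1 by 0.66 (adjusted p = 0.00866, lost without D0 replicate 1 at 0.0718 or D7 replicate 1 at 0.0516). Quantile normalization kept the calls of Brd7 and Bcl7c with NanogBiD and of Phf10 with NanogWT and lost the others. Under it Dpf2 was called lower with NanogWT at D7 than at D0 (log2 difference -0.33, adjusted p = 0.0210), against -0.20 without it (and also without NanogWT D0 replicate 2, at -0.39, adjusted p = 0.0215), and Brd9 was called lower with NanogBiD at D7 (log2 difference -0.59, adjusted p = 0.0226) and at D12 (-0.54, adjusted p = 0.0232) than at D0, against -0.30 and -0.12 without it. The difference in change was called for Brd9, Dpf2 and Bcl7c (3 of 10, against 15.9%). For Dpf2 it was 0.55 (SE 0.17, adjusted p = 0.0339) and was lost without any 1 of 7 of the 8 libraries (adjusted p = 0.0520 to 0.162), holding only without NanogWT D0 replicate 2. For Bcl7c it was 1.02 (SE 0.32, adjusted p = 0.0344) and was lost without NanogWT D0 replicate 1 (0.165), NanogBiD D0 replicate 1 (0.0691), NanogBiD D0 replicate 2 (0.0978), NanogBiD D7 replicate 1 (0.142) or NanogWT D7 replicate 2 (0.125). At D12 the difference in change was called for Dpf2 and Bcl7c (2 of 10, against 37.1%).

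The other 18 listed subunits of these complexes all passed the filter on low values. Between the combinations 1 was called at D0 and at D1 (Ss18, higher with NanogBiD), 3 at D3 (Ss18 higher, Arid1b and the ncBAF gene Bicra lower), 2 at D5 (Ss18 and Smarcd2 higher) and 5 at D7 (Ss18, Actl6a, Smarcc1, Smarcd2 and Smarce1 higher). Of all genes, 1.91%, 3.27%, 10.1%, 16.4% and 28.4% were called at these days in turn. At D10 13 of 18 were called, 10 higher and 3 lower (against 55.6% of all genes, 32.4% higher and 23.1% lower), and at D12 12, with 11 higher and Smarca2 lower (against 50.7%, 31.6% higher and 19.1% lower). Bicra at D3 had a log2 difference of -0.94 (SE 0.25, adjusted p = 0.0216), beside Brd9 at -0.63, and Bicral, the other ncBAF scaffold, was higher with NanogBiD by 1.01 at D10 (adjusted p = 0.000124) and 1.19 at D12 (adjusted p = 2.58e-05). The catalytic genes went apart at D12, with Smarca4 higher by 0.68 (SE 0.18, adjusted p = 0.00416) and Smarca2 lower (log2 difference -1.05, SE 0.15, adjusted p = 1.27e-05).

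Across the 31 time-course libraries, which share day and combination, the members that rose late varied together. Pearson r on log2(FPKM + 1) was 0.85 for Bcl7a with Bcl7c, 0.80 for Arid2 with Bcl7a and for Dpf2 with Bcl7a, and 0.78 for Brd7 with Dpf2. Of the 45 pairs, these 4 were highest, and the most negative was Pbrm1 with Bcl7b (r = -0.73). The genes most like the 3 members of widest range were Msi1 (r = 0.98), Nrarp (0.97) and Ccdc85c (0.97) for Bcl7a, Asic1 (0.91), L1cam (0.91) and Gprasp1 (0.90) for Ss18l1, and Rabl6 (0.93), Mllt6 (0.93) and Smg9 (0.93) for Bcl7c. These correlations follow the day of sampling and carry no test.

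Established iPSC were compared with MEF and between combinations in the transcript table. Its summed levels differ from those of the gene table for the same MEF and mES libraries, by 2.97 to 4.01 times for Bcl7c, 2.18 to 2.33 for Brd7, 2.18 to 2.35 for Brd9, 1.39 to 1.76 for Phf10 and 0.779 to 1.07 for the other 6 members, so levels are compared only within a table. The iPSC showed pluripotency marker sums of 1861 to 5149 FPKM. NanogBiD iPSC1 replicate 9 stood apart, with the lowest of these and a fibroblast marker sum of 1353 FPKM against 2.24 to 423 in the other 11 and 6416 to 7254 in MEF. The fibroblast sum was 3.07 to 1353 FPKM in line iPSC1 and 2.24 to 27.6 in line iPSC2.

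Against MEF, Dpf2, Arid2 and Brd7 were higher in iPSC and Phf10, Pbrm1 and Bcl7a lower (6 of 10, against 71.4% of the 13312 genes tested). Dpf2 ranged from 26.6 to 50.2 FPKM (median 32.2) in the 12 iPSC libraries against 24.4 and 18.7 in MEF and 33.4 in mES, with no overlap with MEF (log2 difference 0.65, SE 0.14, adjusted p = 0.00114). Phf10 ranged from 13.8 to 23.2 FPKM (median 19.2) against 38.6 and 29.9 in MEF and 27.3 in mES, again without overlap (log2 difference -0.83, SE 0.16, adjusted p = 0.000521). Both calls held with any library left out and within each line, at 0.50 (adjusted p = 0.00868) and 0.80 (0.000521) for Dpf2 and -0.96 (0.000265) and -0.70 (0.00351) for Phf10 in iPSC1 and iPSC2. Without NanogBiD iPSC1 replicate 9 all 6 calls except that of Bcl7a remained (adjusted p = 0.0595).

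The other calls against MEF were less firm. Pbrm1 was lower (log2 difference -0.40, SE 0.12, adjusted p = 0.00796), not called within iPSC2 (0.0600) or without MEF replicate 1 (0.0827). Arid2 (0.32, SE 0.13, adjusted p = 0.0375) and Brd7 (0.24, SE 0.10, adjusted p = 0.0385) were lost when rescaled to a common total (0.454 and 0.837). Arid2 was also lost within iPSC2 (0.133) and without MEF replicate 1 (0.104) or replicate 2 (0.185), and Brd7 within iPSC1 (0.185) and without MEF replicate 2 (0.582). When rescaled, Brd9 (-0.47, adjusted p = 0.0251) and Ss18l1 (-0.66, adjusted p = 0.0240) were called lower in iPSC, against -0.24 and -0.36 without it. Bcl7a (-0.46, SE 0.19, adjusted p = 0.0465) was lost within iPSC2 (0.160), without MEF replicate 2 (0.502), with no filter (0.0700) and after quantile normalization (0.0695). It was also lost when the NanogWT iPSC1 libraries labelled 1# and 1#-2, which the labels do not show to be independent samples, were averaged into 1 (0.0554), which ended no other of the 6 calls. For these 3 genes, leaving out single iPSC libraries gave adjusted p-values of up to 0.0738 as well. Bcl7a ranged from 3.14 to 5.47 FPKM in iPSC against 3.42 in mES and Ss18l1 from 0.770 to 1.57 against 2.43, so neither showed in iPSC the levels above mES that the gene table gave for NanogBiD at D12. Brd7 in iPSC (19.3 to 25.8 FPKM) lay below the mES library (38.8 FPKM) in all 12.

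**Figure D4:**
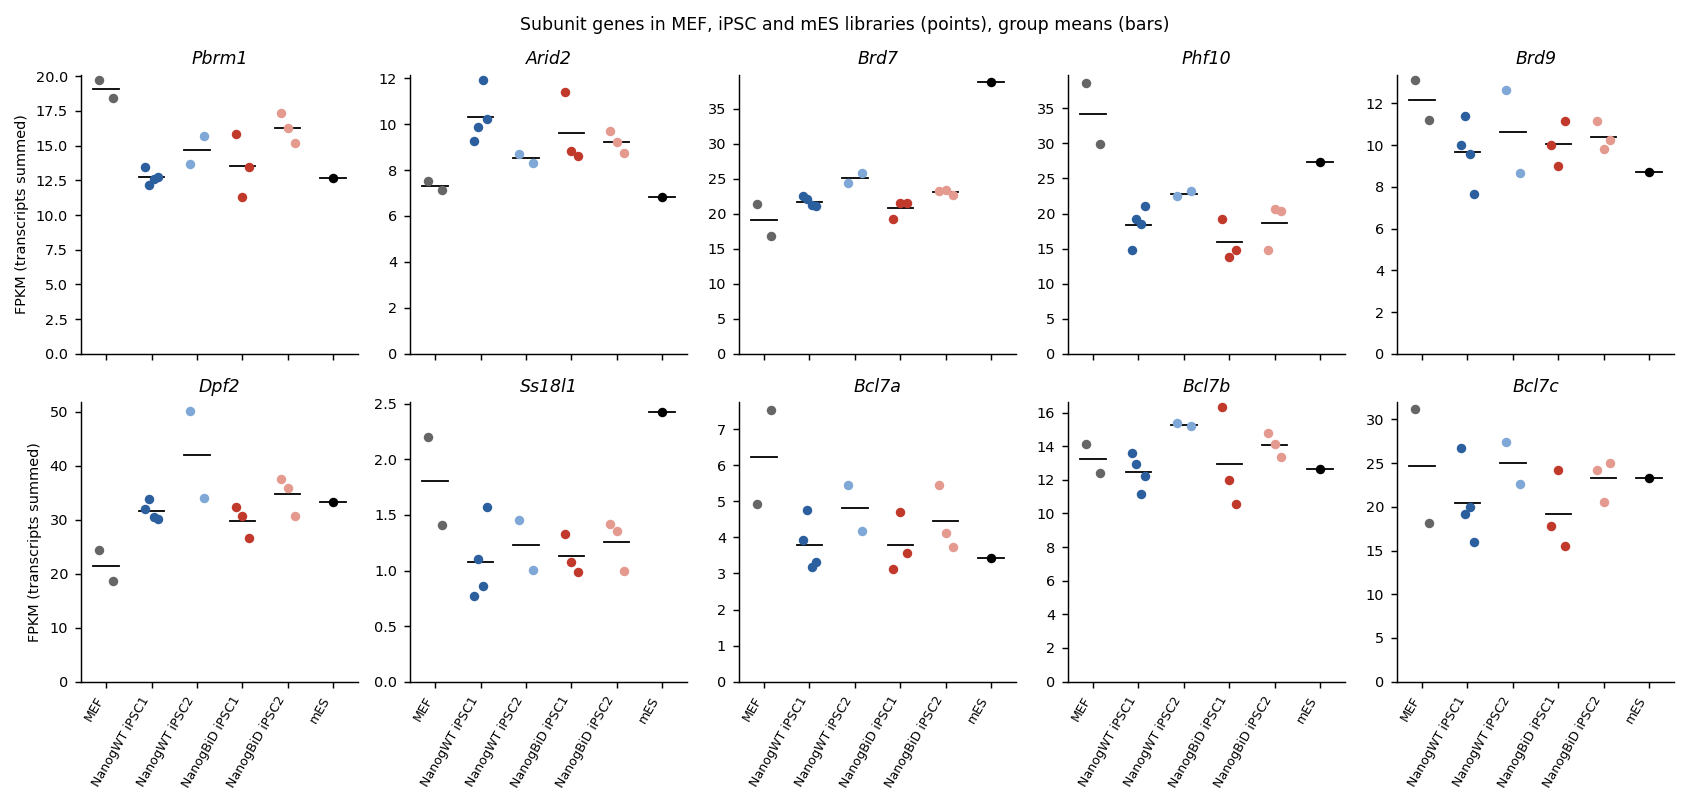
FPKM of the 10 genes, transcripts summed by symbol (vertical axis), in MEF, NanogWT and NanogBiD iPSC of lines iPSC1 and iPSC2, and mES (horizontal axis), with 1 point per library and a bar at the group mean. Phf10 lies lower in the 12 iPSC libraries (13.8 to 23.2 FPKM) than in both MEF libraries, and the iPSC of both combinations overlap for every gene.

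Between NanogBiD and NanogWT iPSC no member was called, nor was any of the 13312 genes (limma, with 227 at an unadjusted p under 0.05). These 227 are fewer than would pass by chance if no gene differed, so the test may be conservative. The absence of calls does not show that the iPSC of both combinations are alike. The log2 differences of the 10 members ran from -0.25 (Phf10, SE 0.13, adjusted p = 1) to 0.11 (Pbrm1, SE 0.09, adjusted p = 1), with SEs of 0.07 to 0.16. The same count of 0 members came from each line alone, from the 12 iPSC libraries with line as a covariate, with the libraries labelled 1# and 1#-2 averaged, and with any library left out. Of the other 18 subunits, 14 passed the filter in this table and 12 were called against MEF, 8 higher and 4 lower, where 71.4% of all genes were called. Smarcd1 (2.27, adjusted p = 1.99e-06) and Actl6a (2.11, adjusted p = 7.38e-08) were highest and Smarcd3 (-2.40, adjusted p = 0.000595) and Smarca2 (-2.12, adjusted p = 2.33e-06) lowest.

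The transcript table also parts some members into transcript forms. Dpf2 has 2 RefSeq forms there. The form NM_001291078.1 holds a coding exon that NM_011262.5 lacks, exon 7 of 12, of 42 bases on chromosome 19 (5903731 to 5903772, mm10, minus strand), which keeps the reading frame since the coding lengths are 1215 and 1173 bases. Its sequence, in capitals throughout because all of it is absent from the other form, is shown because it is the stretch that parts them.
Dpf2 exon 7 of NM_001291078.1: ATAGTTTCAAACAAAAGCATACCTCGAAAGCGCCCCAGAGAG
The form with this exon was at 0.0989 and 0.133 FPKM in MEF and listed at 0 in mES, and ran from 0.0793 to 7.25 FPKM in the 12 iPSC libraries, with 9 of 12 at 1 FPKM or more. It made up 0.234% to 21.8% of Dpf2 in iPSC and 0.530% and 0.546% in MEF. NanogWT iPSC1 replicate 3, NanogBiD iPSC1 replicate 9 and NanogBiD iPSC2 replicate 2 lay below 1 FPKM, of which the first was below both MEF libraries. The first and the second of these had the highest fibroblast marker sums of all iPSC (423 and 1353 FPKM), whose part was not tested, and no test was run on forms.

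Brd9 had 18 listed forms. NM_001308041.1, which differs from NM_001024508.3 by 3 bases of coding length, stood at 5.38 and 3.82 FPKM in MEF, 0.317 to 3.92 in iPSC and 0 in mES, while XM_006517024.2 stood at 0 and 0.852 in MEF, 3.53 in mES and 0.740 to 4.69 in iPSC, so its MEF and iPSC ranges overlap. For Phf10, NM_024250.4 made up 37.4% and 46.9% of the gene in MEF, 84.6% in mES and 6.24% to 92.7% in iPSC. These shares spread widely among iPSC libraries, and the table gives no error for them. Arid2, Bcl7a and Bcl7b have 1 form each in the table, and Pbrm1 has 50, too many for a share to be read.

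**Figure D5:**
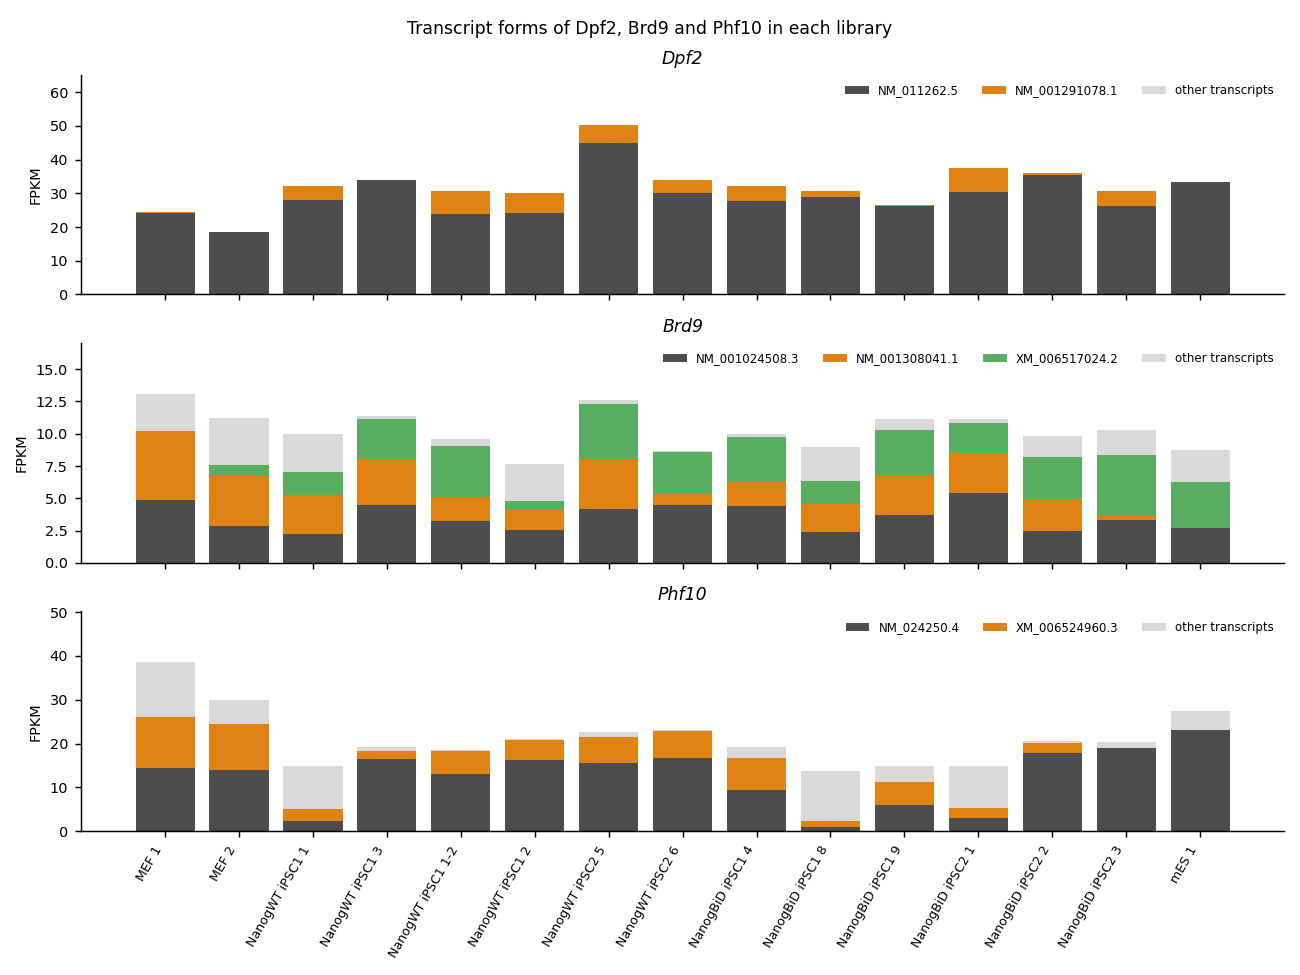
Stacked bars of FPKM per transcript form (vertical axis) of Dpf2, Brd9 and Phf10 in each of the 15 libraries of the transcript table (horizontal axis), with the forms named in the legends and all others in light grey. The Dpf2 form with the extra exon (orange) reaches up to 7.25 FPKM in iPSC and lies at or below 0.133 FPKM in MEF and at 0 in mES, and the forms of Phf10 vary widely among iPSC libraries.

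At D8, with 1 NanogBiD library and no test, levels are given as a description. The share of all genes above or below both NanogWT libraries was not counted. Dpf2 stood at 31.5 FPKM against 16.3 and 16.5, Bcl7a at 11.1 against 4.85 and 6.33, Brd7 at 14.5 against 8.93 and 10.1, and Arid2 at 15.9 against 11.6 and 12.0. Pbrm1 (21.2 FPKM against 18.7 and 19.0), Brd9 (5.75 against 5.17 and 5.54) and Bcl7c (7.39 against 6.52 and 7.15) lay above both NanogWT libraries by less. Bcl7b (12.6 FPKM against 13.9 and 15.5) and Ss18l1 (1.70 against 2.54 and 2.28) lay below, and Phf10 (21.0 against 20.9 and 21.5) between.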

How the data were processed

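RNA-seq of mouse cells was processed by the authors with Trim Galore 0.6.4, HISAT2 2.2.1 on mm10 and StringTie 2.2.1. The FPKM values deposited by the authors (a gene table of 34 libraries, a transcript table of 15) keep replicates apart. The annotation and the use of strand are not given in the sources used here. The protocol in the labels and the study's methods name different library kits. Sequencing depth is not given, so precision rests on the spread between libraries. The authors' GFOLD calls were not used.

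Genes that reached 1 FPKM in 2 or more libraries were tested on log2(FPKM + 1) with limma 3.58.1 (R 4.3.3; eBayes with trend), in 1 fit of 31 time-course libraries in 16 groups (16842 genes) and 1 of 12 iPSC and 2 MEF libraries in 5 groups (13312 genes). Tests were two-sided, with Benjamini-Hochberg adjustment over all genes of the fit. A call needed an adjusted p under 0.05 and no fold limit. D8 and mES were described without a test. The script was tested on simulated data with known changes. Python 3.11.15 with pandas 2.3.3, numpy 2.4.6 and matplotlib 3.10.9 was used for summaries.

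Every member is named in every comparison where it bears on it, the other subunits as counts, and for the 3 members of widest range the 3 genes of highest Pearson r. Members, lists and tests were chosen with earlier results of these data known. Alternatives were a pseudocount of 0.1, no filter, rescaling to a common total, quantile normalization, a limit of at least 2-fold, the compared groups alone, the replicate number as a block and leaving out each library. Fits of D0 to D7 alone and of each iPSC line alone were added after seeing the data. Locations and exons are from GENCODE M21 (mm10).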

Additional observations from a re-analysis of the deposited data

Results flagged for a closer look

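Dpf2 in NanogWT iPSC2 replicate 5, at 50.2 FPKM, stood apart from the other 5 NanogWT iPSC libraries (30.1 to 34.0 FPKM), with a gap of 0.807 of the whole range. It was the single such case in 30 groups checked (10 genes, each in NanogWT iPSC1, NanogWT iPSC and NanogBiD iPSC), and chance flags about 1 in 20. The change from D0 to D7 differed between NanogBiD and NanogWT for Brd9 (-0.87 on the log2 scale), Dpf2 (0.55) and Bcl7c (1.02), and the change from D0 to D12 for Dpf2 (0.85) and Bcl7c (1.14), by limma's interaction term. What bears on these differences beyond the marker sums, depths and libraries named in the results was not tested.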

How the results depend on the processing

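Of 57 calls on single members, 10 kept direction and call under every alternative run, 44 were under 2-fold, 18 were lost in a fit to the compared groups alone and 31 without some 1 library, which leaves a group with 1 library that is assumed to vary like the others. Fold here is that of FPKM + 1, which is smaller than that of FPKM for low genes such as Ss18l1. With at least 2-fold on that scale, the number of members called was 0 at D3 and D5, 1 at D7, 2 at D10, 1 at D12, 0 for the mean of D0 to D7, 0 and 1 from D0 to D7 and 3 and 3 from D0 to D12 (NanogWT and NanogBiD), 1 and 1 for the differences in change, and 0 for iPSC against MEF. The compared groups alone gave 0 at D3, 2 at D7, 0 for NanogWT from D0 to D7, 3 for NanogWT from D0 to D12 and 0 and 1 for the differences in change at D7 and D12. Quantile normalization gave 2 (NanogWT) and 3 (NanogBiD) from D0 to D7 and 3 for NanogWT from D0 to D12. No filter gave 1 at D3, D0 to D7 alone gave 1 at D3 and 1 for the difference in change at D7, and line iPSC2 alone gave 3 against MEF. Leaving out 1 library gave 0 to 3 members at D0, 0 at D1, 0 to 1 at D3, 0 to 1 at D5, 1 to 4 at D7, 5 to 6 at D10, 2 to 5 at D12, 4 to 6 for the mean, 1 to 5 and 3 to 4 from D0 to D7, 3 to 5 and 6 to 6 from D0 to D12 (NanogWT, NanogBiD), 0 to 4 and 1 to 3 for the differences in change, 3 to 6 for iPSC against MEF and 0 to 0 between iPSC. Uncalled values that changed sign with 1 library left out were Pbrm1, at -0.11 to 0.80 (NanogWT, D7 against D0) and -0.82 to 0.090 and -0.80 to 0.11 (differences in change at D7 and D12), turned by leaving out NanogWT D0 replicate 1, and Brd9, at -0.27 to 0.023 (NanogBiD, D12 against D0), turned by NanogBiD D12 replicate 1. The causes were not tested.

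When the replicate number entered as a block, the number of members called was the same in all comparisons except the difference in change at D12, with 3 in place of 2 (Ss18l1 added, 0.59, adjusted p = 0.0401). Deviations of same-numbered libraries correlated at 0.23, 0.13, -0.06, -0.04, 0.39, 0.12 and 0.02 over the days from D0 to D12, highest at D7 and D0. The labels pair these libraries by number alone, and whether they were made together is not given. FPKM without counts give no interval for low values, which limits Ss18l1 most.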
